A study of Homo sapiens with 2 samples.

Results

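Interferon-stimulated effector genes encode the antiviral proteins that a cell makes after it has sensed an interferon. They were followed here in Calu-3 cells, a human lung adenocarcinoma line used as a model of airway epithelium, with and without cyclic mechanical stretch. The list holds 55 genes given by name; no threshold on their values defines it, but it was drawn up with earlier results of these arrays known. A gene entered through every probe set that the platform annotation assigned to it alone, and this gave 99 probe sets for 53 of the 55 genes, out of 19775 genes named on the array. TDRD7 and UBA7 had no such probe set.

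The comparison asks how transcript levels differ between strained and unstrained lung epithelial cells. The first group is Calu-3 cells after 18 h of cyclic stretch and the second is Calu-3 cells labelled non-stretch for the same 18 h. Each group is a single array of a single cell line (n = 1 each), so there is no spread between replicates, no test and no p-value, and anything else that differed between the 2 cultures or arrays cannot be told apart from stretch. Cells had been grown to about 80% confluence on flexible plates coated with type I collagen and were kept in MEM with 10% serum. The stretch followed a sine wave between a minimum of 0.7% and a maximum of 20%, on for 2 s and off for 2 s.

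Type I and type III interferons act through cell surface receptors and the kinases JAK1 and TYK2, which lead to the transcription factor complex ISGF3. ISGF3 contains IRF9 and binds the interferon-stimulated response element (ISRE) in the promoters of these genes. Interferon gamma acts through another element, the gamma-activated sequence (GAS). The products block virus entry, degrade or edit viral RNA, stop translation or tag proteins with the ubiquitin-like ISG15. In airway epithelium they form the first line of defence against respiratory viruses, and many are made at a low level without any added interferon.

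The 2 arrays were close in scale. The median of non-control probe sets was 28.4 in the stretched array and 28.7 in the non-stretched array, and signals below this median were set to it (the floor). A gene above the floor in at least 1 array is called measured. Its level is the signal intensity of its brightest probe set, in arbitrary units, and the difference between arrays is the log2 stretched signal minus the log2 non-stretched signal. The 18 hybridisation spike-in probe sets had a median log2 difference of -0.11. The ratio of the 3′ to the 5′ control probe set was 0.862 in the stretched and 0.878 in the non-stretched array for GAPDH, and 1.01 in the stretched and 1.04 in the non-stretched array for ACTB. One control probe set moved with the groups and read 5338 in the stretched and 657 in the non-stretched array. It is the middle probe set of the control for the large ribosomal RNA, and whether it bears on the genes below was not tested.

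Stretched cells carried less of most effector transcripts. Among the 53 measured genes, 28 were lower by 2-fold or more and 0 were higher by 2-fold or more. The other 25 did not pass the 2-fold line, and among them BST2 has only a lower bound. The share of all 13453 measured genes lower by this margin was 7.49%, and the share higher by it was 7.78%. The median log2 difference of the 53 genes was -1.04, against 0.0050 over all measured genes. Values below 0 were found in 51 of the 53 genes. All 53 genes with a probe set of their own passed the floor, 47 of them in both arrays and 6 (MX2, TRIM22, IFI44L, RSAD2, EPSTI1 and BST2) in the non-stretched array only. Among the 47, 23 were at least 2-fold lower and the median was -0.91, while 7.16% of all genes above the floor in both arrays were at least 2-fold lower. With the floor set higher, at each array's 75th percentile, 41 genes were measured and 11 were lower by 2-fold or more, against 4.59% of all genes. Among the 11, IFIT2, OAS1, MX1 and GBP2 were below this higher floor in the stretched array. They counted as measured only through the array where they were higher. In a bulk sample, fewer expressing cells and less RNA per cell cannot be told apart.

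A single probe set carries noise of its own. It was estimated between the pairs of brightest probe sets of a gene, using only those with no signal set to the floor. Over 5818 genes the SD of one probe set's log2 difference was 0.36, and over 16 effector genes it was 0.41. A 2-fold difference is 1 on this scale. This SD covers probe and isoform effects but not the variation between cultures, which 1 array a group cannot show. It left out OAS2, EPSTI1, SAMD9L, XAF1 and RSAD2, each with a measured probe set below the floor in the stretched array. Their probe sets ranged from -1.84 to 0.25 in OAS2 and from -2.63 to -0.18 in EPSTI1. The ranges were -2.13 to -1.13 in SAMD9L, -1.60 to -1.13 in XAF1 and -1.16 to -1.02 in RSAD2. Both ends of the EPSTI1 and RSAD2 ranges are bounds, so these ranges need not show the true spread. The noise of genes at the floor is therefore not given by this SD.

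**Figure D1:**
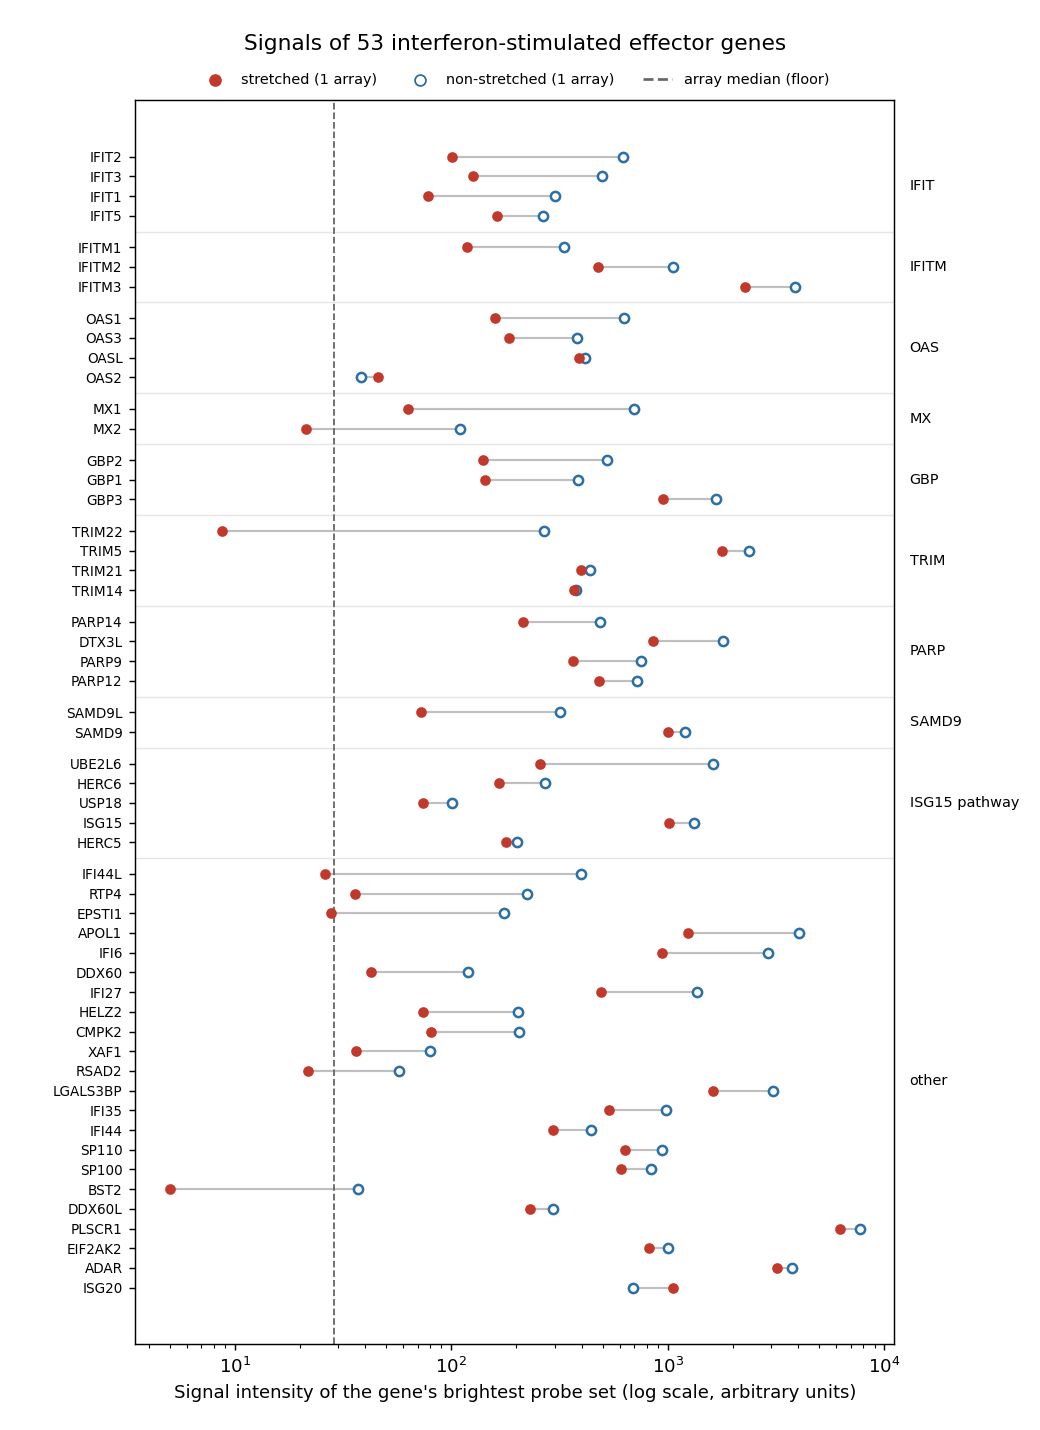
Signal intensity (log axis, arbitrary units) of the brightest probe set of each of the 53 genes in the stretched array (filled) and the non-stretched array (open), grouped by family and sorted by difference, with the dashed line at the non-stretched array median of 28.7. In 51 of 53 rows the stretched point lies to the left of the non-stretched point; the exceptions are OAS2 and ISG20.

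The promoters of these genes were searched for the response elements, since that is where the interferon-activated factors bind. RefSeq promoter windows (GRCh38.p14, 250 bases before to 50 bases after the start) were matched by symbol for 45 of the 55 genes. The ISRE core GAAANNGAAA, on either strand, was found in 33 of the 45 (73.3%), and in 4.38% of the 27305 genes with a window. The core followed by CT was found in 19 of the 45 and in 0.322% of all genes. The GAS motif TTCNNNGAA, which reads the same on both strands, was found in 12 of the 45 (26.7%) and in 9.38% of all genes. Both motifs were present in 9 genes, and they overlapped in 5 of these (BST2, EPSTI1, IFI27, IFITM1 and MX1).

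Within the list, genes with and without the ISRE motif were compared for both lengths of the motif. Every gene with the longer motif also holds the core, so the comparisons are not separate. Both rest on few genes, and neither difference was tested. The 33 genes with the core had a median log2 difference of -0.91, and 16 were at least 2-fold lower. The 11 measured genes without it had a median of -1.13, and 6 were at least 2-fold lower. For the longer motif the order was the other way, with a median of -1.07 and 11 of 19 at least 2-fold lower among genes that hold it, against -0.88 and 11 of 25 among those that do not. Among genes outside the list, 11.6% of the 397 measured genes with the core and 7.69% of the 26 with the longer motif were at least 2-fold lower. The share of all measured genes was 7.49%. For GAS, the median was -1.32 in the 12 genes with the motif and -0.84 in the 32 measured genes without it. A match is only a match of letters, and its absence from this window says nothing of binding.

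The windows below show the ISRE core (capitals, on either strand) in the 5 core-bearing genes with the largest negative difference, printed 5′ to 3′ on the gene's strand and ending before the annotated start. IFI44L is at chr1:78620335-78620424 (plus strand), MX1 at chr21:41431814-41431903 (plus), RTP4 at chr3:187368327-187368384 (plus), EPSTI1 at chr13:42992242-42992331 (minus) and IFIT3 at chr10:89332435-89332527 (plus), all in GRCh38.p14.
IFI44L: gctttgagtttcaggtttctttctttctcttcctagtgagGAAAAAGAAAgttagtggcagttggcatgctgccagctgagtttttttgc
MX1: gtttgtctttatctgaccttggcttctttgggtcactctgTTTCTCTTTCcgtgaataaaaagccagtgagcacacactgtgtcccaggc
RTP4: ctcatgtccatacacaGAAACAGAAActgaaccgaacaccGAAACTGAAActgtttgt
EPSTI1: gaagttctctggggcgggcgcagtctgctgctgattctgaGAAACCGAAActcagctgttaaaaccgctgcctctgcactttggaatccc
IFIT3: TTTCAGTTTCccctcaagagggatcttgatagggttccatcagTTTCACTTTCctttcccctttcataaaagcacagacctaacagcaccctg
RTP4 and IFIT3 hold the core in 2 places of the window shown. In IFI44L the core lies in a run of purines.

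For contrast, the next windows are those of ISG20, which had the highest difference of the list, and of TRIM14, HERC5 and SAMD9, which had the smallest differences among genes with the core upstream of the start. ISG20 is at chr15:88638907-88638996 (plus strand), TRIM14 at chr9:98119223-98119288 (minus), HERC5 at chr4:88457000-88457094 (plus) and SAMD9 at chr7:93118066-93118155 (minus).
ISG20: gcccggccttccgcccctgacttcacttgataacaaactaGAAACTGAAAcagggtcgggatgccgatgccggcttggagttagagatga
TRIM14: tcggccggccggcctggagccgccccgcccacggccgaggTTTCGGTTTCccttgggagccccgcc
HERC5: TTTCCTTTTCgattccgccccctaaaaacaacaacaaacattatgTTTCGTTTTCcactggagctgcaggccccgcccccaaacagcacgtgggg
SAMD9: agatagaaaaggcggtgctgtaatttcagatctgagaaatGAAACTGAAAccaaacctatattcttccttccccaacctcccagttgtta
These windows, like the 5 above, were chosen among genes with the core, so that each holds it follows from the choice.

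The IFIT proteins bind viral RNA and block its translation. Stretch went with a level lower by 2-fold or more in 3 of the 4 genes, and the family median was -1.97. IFIT2 had a signal of 101 in the stretched array, against 619.8 in the non-stretched array, 6.16-fold lower. Its dimmer probe set read 37.2 in the stretched and 70.6 in the non-stretched array, 1.90-fold lower, so the size of the IFIT2 difference depended on the probe set.

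IFIT1, which recognises RNA without the cap methylation of host messages, was at 77.7 in the stretched and 301 in the non-stretched array (3.87-fold lower). IFIT3, the partner that stabilises IFIT1, was at 126 stretched and 497 non-stretched (3.94-fold lower), and its other probe set gave 3.79-fold. IFIT5 differed least, with 163 in the stretched and 265 in the non-stretched array (log2 difference -0.70). Its second probe set was at -1.01, on the other side of the 2-fold line.

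The IFITM proteins sit in the plasma and endosomal membranes and hinder the fusion of enveloped viruses. All 3 were lower, with a median of -1.15. IFITM1 was at 119 in the stretched and 332 in the non-stretched array (2.79-fold lower), IFITM2 at 477 stretched and 1058 non-stretched (2.22-fold lower), and IFITM3 at 2269.9 stretched and 3868 non-stretched (1.70-fold lower). Each had a single probe set, ending in _s_at or _x_at, a sign that its probes can bind related transcripts. A further probe set is annotated to IFITM1 and IFITM2 together and had 474 in the stretched and 865 in the non-stretched array. The 3 values are therefore uncertain as values of separate genes.

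The OAS enzymes make oligoadenylates that switch on RNase L, while OASL lacks this activity and acts on RNA sensing. OAS1 was at 159 in the stretched and 629 in the non-stretched array (3.95-fold lower), and its other probe set was 2.99-fold lower. OAS3 was at 185 stretched and 381 non-stretched (2.06-fold lower), just past the 2-fold line. OASL was at 389.7 in the stretched and 416 in the non-stretched array, a log2 difference of -0.094, with its other probe set at -0.58.

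The probe sets of OAS2 disagreed. The one with the highest mean log2 signal read 45.6 in the stretched and 38.4 in the non-stretched array, a log2 difference of 0.25. A second read 4.33 in the stretched array, below the floor, and 102 in the non-stretched array, at least 3.59-fold lower. The third read 9.36 stretched and 40.7 non-stretched, at least 1.44-fold lower. With probe sets averaged, OAS2 was at -0.70, so its direction turns with the choice of probe set.

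The MX proteins are dynamin-like GTPases that trap viral nucleocapsids. MX1, known for its action on influenza viruses, was at 63.0 in the stretched and 696 in the non-stretched array, 11.1-fold lower. MX2, known for its action on HIV, was at 21.3 in the stretched array, below the floor, and 110.1 in the non-stretched array, at least 3.88-fold lower. Each had 1 probe set.

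The guanylate-binding proteins, large GTPases that attack the vacuoles of intracellular pathogens, were lower in all 3 genes, with a median of -1.43. GBP2 was at 139.7 in the stretched and 524 in the non-stretched array (3.75-fold lower). GBP1 was at 143 stretched and 386 non-stretched (2.70-fold lower), and its 3 measured probe sets agreed within -1.50 to -1.43. GBP3 was at 954 in the stretched and 1672 in the non-stretched array (1.75-fold lower).

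The TRIM genes were the most uneven family. TRIM22, an antiviral ubiquitin ligase, was at 8.69 in the stretched array, below the floor, and 267 in the non-stretched array, at least 9.42-fold lower. Its single probe set ends in _s_at. The other three differed little. TRIM5, which recognises retroviral capsids, was at 1779 in the stretched and 2380.2 in the non-stretched array (log2 difference -0.42). TRIM21, a cytosolic antibody receptor, was at 395 stretched and 439 non-stretched (-0.15). TRIM14, an adaptor of the MAVS pathway, was at 369 stretched and 377 non-stretched (-0.033). The 4 measured TRIM14 probe sets lay between -0.095 and 0.28, and the sign of its difference turned when arrays were centred on the spike-ins, when probe sets were averaged and when those with shared endings were left out.

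The PARP family members attach ADP-ribose to proteins, and DTX3L is the ubiquitin ligase that pairs with PARP9. PARP14 was at 215 in the stretched and 485 in the non-stretched array (2.26-fold lower). DTX3L was at 855 stretched and 1799.9 non-stretched (2.11-fold lower), and PARP9 at 366 stretched and 752 non-stretched (2.06-fold lower). The brightest PARP9 probe set ends in _s_at, and its other probe set was at 60.8 in the stretched and 61.3 in the non-stretched array, with no visible difference. PARP12 was at 481 stretched and 721 non-stretched (1.50-fold lower). By brightest probe set the family lay between -1.17 and -0.58, and the other PARP9 probe set, at -0.011, fell outside this band.

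SAMD9 and SAMD9L are related cytoplasmic proteins that restrict poxviruses, and they differed from each other. SAMD9L was at 72.6 in the stretched and 318 in the non-stretched array (4.38-fold lower), with a second probe set at least 2.19-fold lower. SAMD9 was at 1005 stretched and 1195 non-stretched (log2 difference -0.25), with its second probe set at -0.057.

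The ISG15 pathway tags proteins with ISG15 through an activating enzyme (UBA7), a conjugating enzyme (UBE2L6) and a ligase (HERC5 in humans), and USP18 takes the tag off and also restrains the interferon receptor. Of the 5 measured genes, only UBE2L6 was at least 2-fold lower. It was at 256 in the stretched and 1609 in the non-stretched array, 6.27-fold lower, in 1 probe set. ISG15 itself was at 1017 stretched and 1321 non-stretched (log2 difference -0.38). HERC5 was at 179.7 in the stretched and 201 in the non-stretched array (-0.16), HERC6, its relative, at 166 stretched and 272 non-stretched (-0.71), and USP18 at 74.0 stretched and 100.5 non-stretched (-0.44). UBA7 is covered by a pair of probe sets that are also annotated to a microRNA within it. They read 34.4 and 21.8 in the stretched array, against 89.3 and 80.7 in the non-stretched array, and enter no count.

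**Figure D2:**
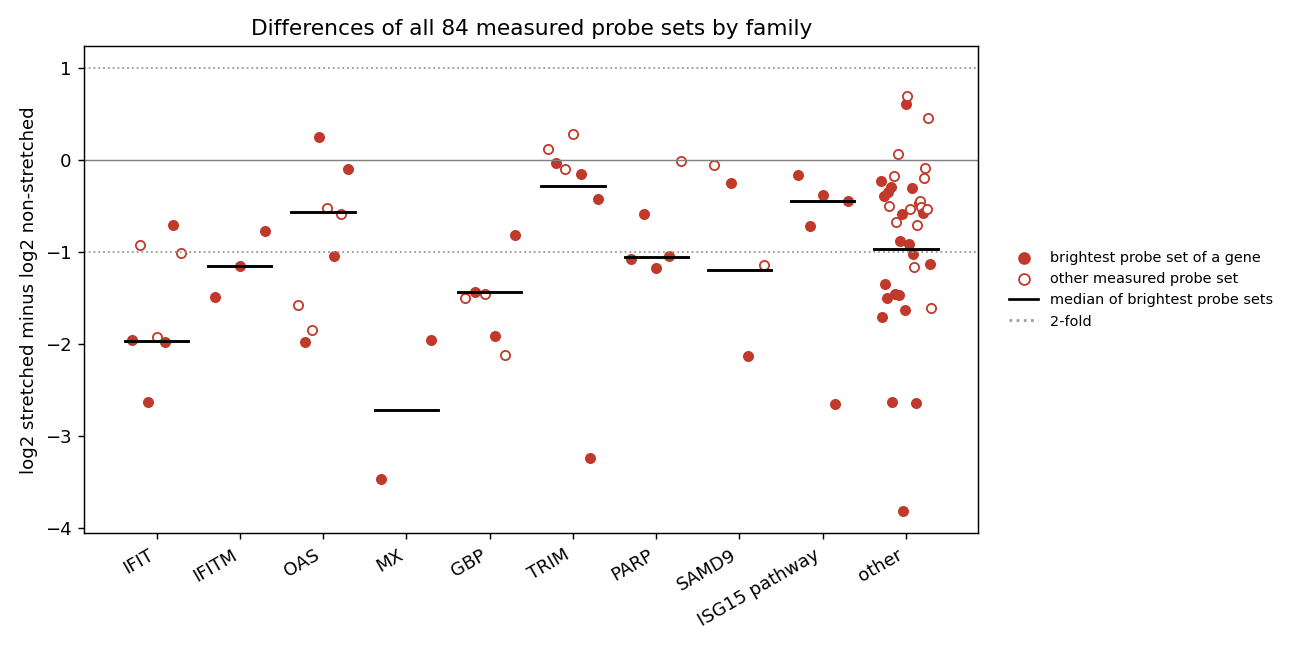
Log2 stretched minus log2 non-stretched of all 84 measured probe sets by family; filled points are the brightest probe set of a gene, open points its other measured probe sets, black bars the median of the filled points and dotted lines 2-fold. The IFIT, IFITM, MX, GBP, PARP, SAMD9 and ISG15 pathway points all lie below 0, while OAS2, TRIM14, ISG20, SP110 and HELZ2 have a point above 0.

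The remaining 22 measured genes had a median of -0.97, and 11 were at least 2-fold lower. IFI44L, a cytoplasmic interferon-induced protein, was at 26.2 in the stretched array, just below the floor, and 399 in the non-stretched array. It was at least 14.1-fold lower. Its relative IFI44 was at 296 in the stretched and 443 in the non-stretched array, 1.50-fold lower. RTP4, a chaperone of receptor transport with antiviral activity, was at 35.8 stretched and 223 non-stretched (6.23-fold lower). EPSTI1 was at 27.8 in the stretched array, just below the floor, and 175 in the non-stretched array, at least 6.18-fold lower. Its second probe set was near the floor in the non-stretched array and bounds the difference only at 1.13-fold.

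Genes acting on RNA and nucleotides differed in size. RSAD2 (viperin), which makes a chain-terminating nucleotide, was at 21.8 in the stretched array, below the floor, and 57.4 in the non-stretched array, at least 2.02-fold lower. Its neighbour CMPK2, a nucleotide kinase, was at 80.7 stretched and 206 non-stretched (2.55-fold lower). DDX60, a helicase, was at 42.4 in the stretched and 119.6 in the non-stretched array (2.82-fold lower), and the related DDX60L at 231 stretched and 295 non-stretched (1.28-fold lower). HELZ2, a helicase-like coactivator, was at 74.2 stretched and 203 non-stretched (2.73-fold lower), but its 3 measured probe sets ranged from -1.45 to 0.071. EIF2AK2 (PKR), the kinase that halts translation on double-stranded RNA, was at 817 in the stretched and 999 in the non-stretched array (-0.29 on the log2 scale). ADAR, which edits double-stranded RNA, was at 3197 stretched and 3732 non-stretched (-0.22).

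ISG20, an RNA exonuclease, went the other way. It was at 1052 in the stretched and 687 in the non-stretched array, 1.53-fold higher, and its second probe set agreed at 0.70 on the log2 scale. This was below 2-fold. No other gene of the list lay above 0 in every measured probe set.

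Another 4 genes were at least 2-fold lower. IFI6 was at 938 in the stretched and 2888 in the non-stretched array (3.08-fold lower), and IFI27 at 492 stretched and 1357 non-stretched (2.76-fold lower). XAF1, an antagonist of the apoptosis inhibitor XIAP, was at 36.3 stretched and 79.4 non-stretched (2.19-fold lower), and its second probe set was at least 3.04-fold lower. APOL1, the trypanosome lytic factor of human serum, was at 1244 in the stretched and 4038 in the non-stretched array (3.25-fold lower).

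The genes that follow did not pass the 2-fold line. LGALS3BP, a secreted glycoprotein, was at 1624 in the stretched and 3060.0 in the non-stretched array (1.88-fold lower), and IFI35 at 534 stretched and 983 non-stretched (1.84-fold lower). The nuclear body proteins SP100 and SP110 were at 605 and 635 in the stretched array, against 838 and 942 in the non-stretched array. The 4 measured SP100 probe sets agreed within -0.71 to -0.44, whereas the 5 of SP110 ranged from -0.57 to 0.45. PLSCR1, a phospholipid scramblase, was at 6247 in the stretched and 7705 in the non-stretched array (-0.30). BST2 (tetherin), which holds budding virus at the cell surface, was at 5.01 in the stretched array, below the floor, and 37.2 in the non-stretched array, only slightly above it. It was at least 1.31-fold lower, and whether it passed 2-fold cannot be read from these values.

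Counted by probe set, 38 of the 84 measured probe sets of the list lay past 2-fold downward and 0 past 2-fold upward. Of all measured named probe sets, 6.48% were at least 2-fold lower. Some of the 84, such as those of MX2, TRIM22, IFI44L, RSAD2 and EPSTI1, had a stretched signal set to the floor. A probe set of this kind could only lie below 0, so the 38 partly follows from how probe sets counted as measured. Leaving such values out was done for genes only, with 23 of 47 at least 2-fold lower. The list had 21 genes with more than 1 measured probe set. In 16 of these every measured probe set lay below 0, and in 7 every one was at least 2-fold lower. In 6 genes some probe sets passed the 2-fold line downward and others did not. EPSTI1 counts among these 6, but its second probe set gives only a bound, so whether that probe set passed cannot be read.

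Many of these genes lie side by side in the genome, which allows a comparison with their neighbours. In RefSeq's order of protein-coding genes, 27 measured members formed 12 runs of adjacent members. Of these 27, 18 were at least 2-fold lower and the median was -1.15. The nearest measured genes on either side that were not members numbered 21, with a median of 0.062. Of these 21, 2 passed 2-fold downward and 2 upward. The shares of all measured genes were 7.49% downward and 7.78% upward. On chromosome 21, MX2 and MX1 lay between BACE2, at 0.16 on the log2 scale, and TMPRSS2, a membrane protease, at 0.24. On chromosome 12, OAS1, OAS3 and OAS2 lay between the phosphatase gene PTPN11 at 0.062 and RASAL1 at 0.068.

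On chromosome 10, IFIT2 was flanked by the lysosomal lipase gene LIPA at -0.49, and IFIT5 by PANK1, a pantothenate kinase gene, at -0.100. The GBP genes on chromosome 1 lay between RBMXL1 at 0.84 and LRRC8B at 0.56. The neighbours past 2-fold were PGGHG beside the IFITM genes, at -1.19, FAM13A beside HERC5, at -1.31, RNF144A beside RSAD2, at 1.64, and CDK6, a cell cycle kinase, beside SAMD9, at 1.11. The PGGHG value is a bound, since its stretched signal of 27.4 was below the floor. PTGFR beside IFI44L and ALLC beside CMPK2 were also below it in the stretched array, at 9.46 and 24.1. Their differences of -0.13 and -0.16 are therefore bounds too. Within runs, adjacent members could differ widely, as IFI44L with IFI44 and SAMD9L with SAMD9.

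**Figure D3:**
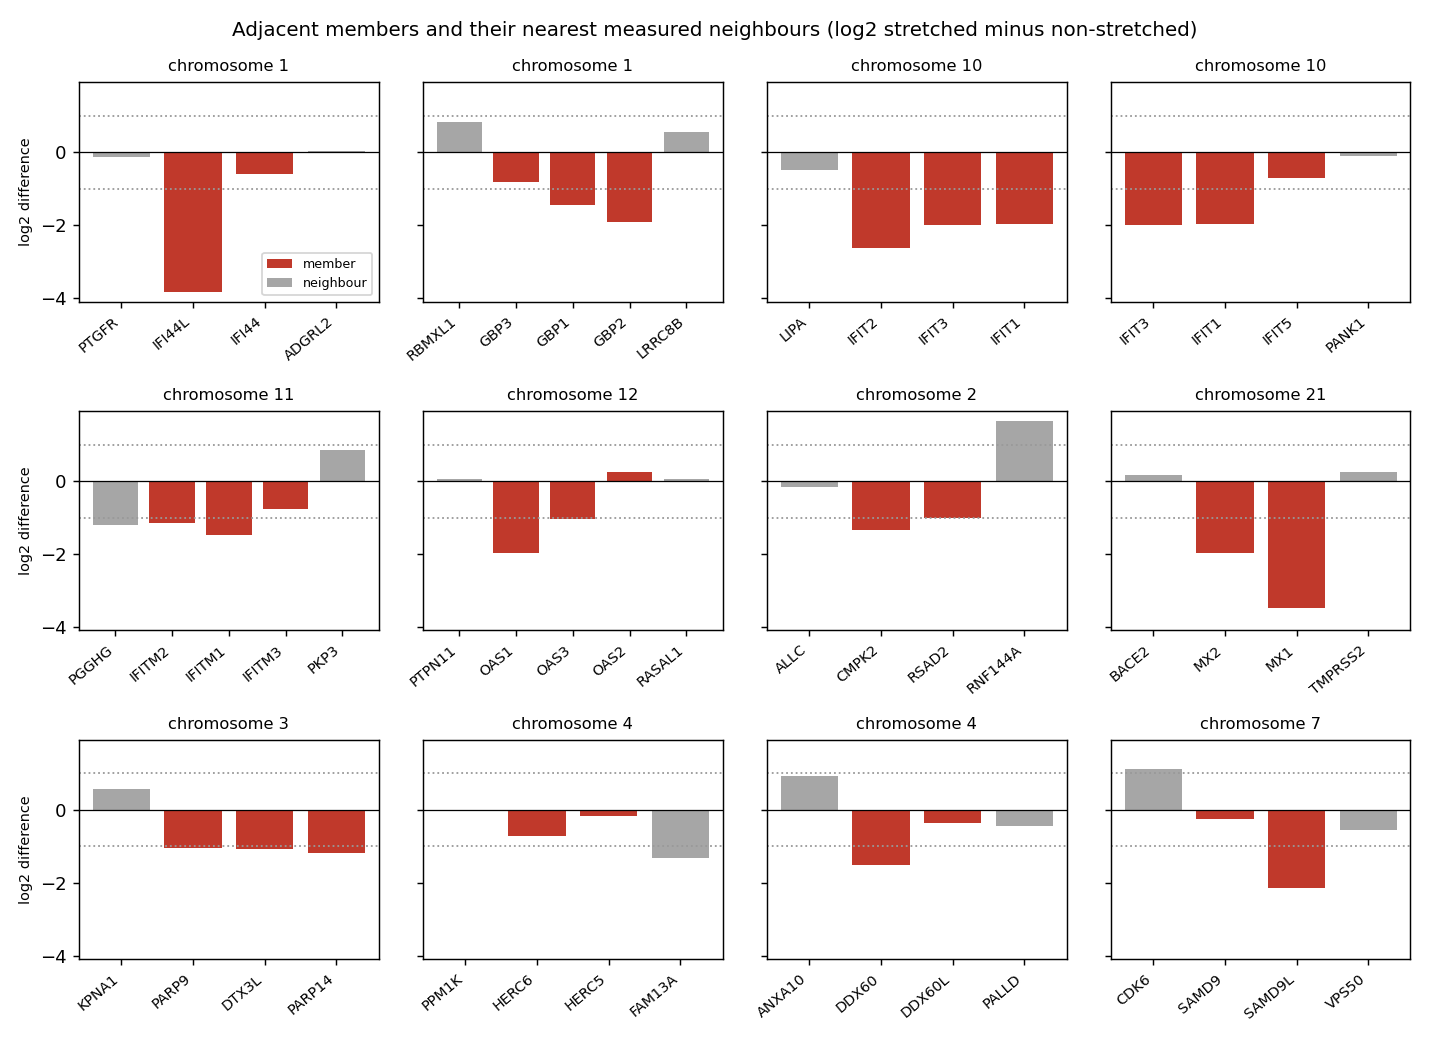
Log2 stretched minus log2 non-stretched for the 12 runs of adjacent members (red) and the nearest measured gene on each side (grey, unless that gene is itself a member), in genome order, with dotted lines at 2-fold. Members are below 0 in every run, with OAS2 as the exception, and neighbours lie on both sides of 0 with a median of 0.062.

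Upstream genes of the interferon pathway were mixed. The lists of ligands, receptors, kinases and transcription factors, sensors and other regulators hold 38 genes, of which 29 were measured. Of these 29, 6 passed 2-fold downward and 1 upward, with a median of -0.31. Over all measured genes, 7.49% passed downward and 7.78% upward, with a median of 0.0050. IRF9, the DNA-binding subunit of ISGF3, was at 305 in the stretched and 1295 in the non-stretched array, 4.25-fold lower, in 1 probe set. IRF2 was at 164 stretched and 377 non-stretched (2.29-fold lower) and IRF1, a factor induced by interferon gamma, at 430.1 stretched and 941 non-stretched (2.19-fold lower). A second IRF1 probe set was at -0.65 on the log2 scale, short of 2-fold. The kinases JAK1, JAK2 and TYK2 were at -0.78, 0.069 and 0.20 on the log2 scale.

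Among sensors, TLR3, the endosomal receptor for double-stranded RNA, was at 14.3 in the stretched array, below the floor, and 124 in the non-stretched array, at least 4.38-fold lower. IFIH1 (MDA5), a cytosolic sensor of long double-stranded RNA, was at 198 stretched and 525 non-stretched (2.65-fold lower), and STING1, the adaptor of DNA sensing, at 83.4 stretched and 181 non-stretched (2.17-fold lower), with a second STING1 probe set at -0.64 on the log2 scale. CGAS, the cytosolic DNA sensor, was at 124 in the stretched and 35.6 in the non-stretched array, 3.49-fold higher, though another of its probe sets was at 0.25. RIGI was at 0.30 on the log2 scale, and its 3 measured probe sets ranged from -0.55 to 0.30, so its direction turned with the probe set.

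None of the 6 receptor genes passed 2-fold in its brightest probe set. IFNGR1 came nearest, at 686 in the stretched and 1368 in the non-stretched array (1.99-fold lower), and IFNAR1 was at 244 stretched and 471 non-stretched (1.93-fold lower), with another IFNAR1 probe set at 0.23. The second IFNGR1 probe set was past the line at -1.04, and centring on the 75th percentile put IFNGR1 at -1.10 and IFNAR1 at -1.06. Of 7 ligand genes with a probe set of their own, only IFNE and IFNL1 were above the floor in an array, at 19.6 and 30.9 in the stretched array and 41.1 and 35.5 in the non-stretched array. Among the other regulators, SOCS3, an inhibitor of cytokine receptors, was at 522 in the stretched and 292 in the non-stretched array (1.79-fold higher), and its 3 measured probe sets ranged from 0.26 to 1.21 on the log2 scale.

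**Figure D4:**
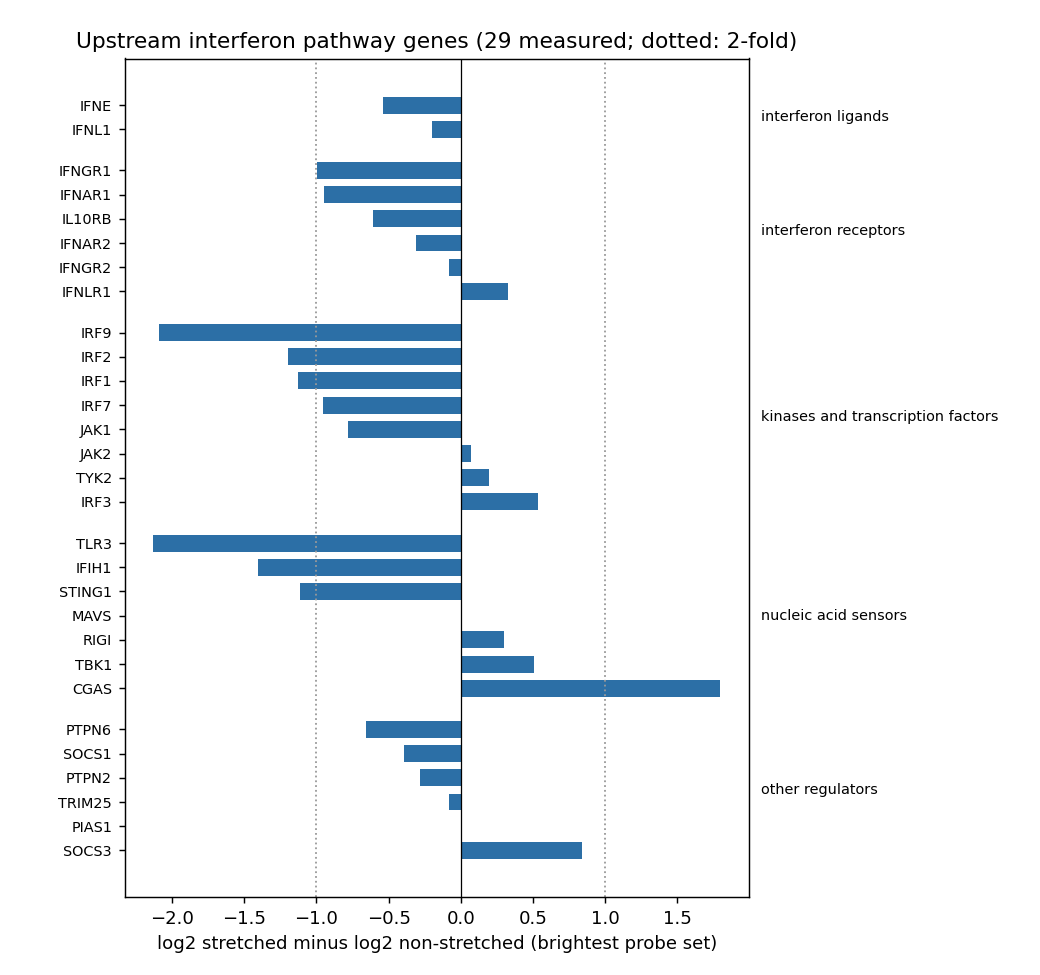
Log2 stretched minus log2 non-stretched of the 29 measured upstream genes of the interferon pathway by role, with dotted lines at 2-fold. IRF9 and TLR3 reach beyond -2, CGAS is the only bar past 2-fold to the right, and the bars of the 6 receptors, drawn for the brightest probe set, stay within 2-fold.

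The cells carried epithelial markers in both arrays. EPCAM was at 4933 in the stretched and 5482 in the non-stretched array, and KRT18 at 12028 stretched and 10324 non-stretched. Among the 8 epithelial markers, MUC1 and ELF3 were at least 2-fold lower, at -1.45 and -1.86 on the log2 scale. The summed signal of 5 leukocyte markers was 1606 in the stretched and 1381 in the non-stretched array, nearly all of it from LYZ, which airway epithelium also makes, and PTPRC was below the floor in both. The sums were 202 stretched and 250.1 non-stretched for 7 fibroblast markers and 89.4 stretched and 92.4 non-stretched for 5 endothelial markers, and none of these markers differed 2-fold in its brightest probe set.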

How the data were processed

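The values deposited by the authors are linear signal intensities, 1 for each of 54675 probe sets (62 of them controls) on each array. Per the labels' protocols, biotin-labelled cRNA was made from 6 ug of total RNA by the standard Affymetrix procedure. How signals were summarised and scaled, and with which software, is not given in the sources used here.

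The intensities were used as deposited. Gene names come from the platform annotation and were brought up to RefSeq's present symbols by gene ID; 41091 named 1 gene, 1801 named several and 11721 were unnamed here. Only the first class was used. A gene's brightest probe set is the one with the highest mean log2 signal. Values below an array's 50th percentile (28.4 stretched, 28.7 non-stretched) were set to it, and a fold against a value at this floor is written as "at least". A gene counted as higher or lower from 2-fold on. With 1 array a group no test was made. Probe sets ending in _x_at, _s_at or _a_at can bind several transcripts.

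The members, gene lists and the rule for named genes (every measured member, and upstream genes at least 2-fold different with IRF9) were chosen with earlier results of these data known. Other upstream genes, the neighbours, MUC1, ELF3 and the windows shown for contrast were added after values were seen. Neighbours come from RefSeq's order of protein-coding genes. Motifs were searched in RefSeq promoter windows. The calculation was tested on simulated arrays, in which only brighter genes above the floor in both arrays were changed. Differences of genes at the floor were therefore not tested in this way. There were 7 alternatives to the processing. Python 3.11.15, pandas 2.3.3, numpy 2.4.6 and matplotlib 3.10.9 were used.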

Additional observations from a re-analysis of the deposited data

Results flagged for a closer look

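One control probe set, outside the genes compared, gave a signal in the stretched array above that in the non-stretched array. The middle probe set of the control M27830, for the large ribosomal RNA, read 5337.6 in the stretched and 657 in the non-stretched array, 8.12-fold higher. The 5′ probe set of the same control read 5917 in the stretched and 3149 in the non-stretched array, 1.88-fold higher, and its 3′ probe set was below the floor in both. The 3 probe sets of the control for the small ribosomal RNA were at -0.76, -0.31 and -0.12 on the log2 scale. Whether these signals bear on the effector genes was not tested.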

How the results depend on the processing

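No paired analysis was possible because each group has 1 array, and for the same reason no array could be left out. Of the 7 alternatives, 6 left between 22 and 29 of the measured genes lower by 2-fold or more and 0 higher. They covered 53 genes (37 without probe sets of shared endings), with medians between -1.15 and -0.91. Over these 6, the share of all genes at least 2-fold lower ranged from 6.17% with centring on spike-ins to 12.01% with no floor. With no floor, 11.65% of all genes were at least 2-fold higher. The floor at the 75th percentile (249 stretched, 231 non-stretched) was the exception, with 41 genes measured, 11 at least 2-fold lower (26.8%, against 4.59% of all genes) and a median of -0.58. Among the 11, IFIT2, OAS1, MX1 and GBP2 were above this floor in the non-stretched array only, so their differences there are bounds. That floor raises low signals in both arrays by construction, which can shrink the differences of dimmer genes. It moved the medians of IFIT to -0.63, IFITM to -0.77, MX to -1.48, GBP to -0.81, SAMD9 to -0.30 and the other genes to -0.58. Of 21 measured upstream genes it left 3 lower and 0 higher, against 4.59% and 6.39% of all genes. With no floor, 10 of 36 upstream genes were lower, against 12.01% of all genes. Among the 10, IFNG and IFNK were below the main floor in both arrays. They read 2.36 and 4.69 in the stretched array, and 10.25 and 9.52 in the non-stretched array. IFNE and SOCS1, also among the 10, were below it in the stretched array. Without probe sets of shared endings 0 upstream genes were higher, since the brightest CGAS probe set has such an ending. These upstream counts were added after seeing the data. The longer ISRE was found in 19 promoters against 33 for the core.

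Scaling moved single calls. With centring on the 75th percentile or quantile normalization, 9 of 29 upstream genes were at least 2-fold lower, with IFNAR1, IFNGR1 and IRF7 added. The share of all genes was 9.05% with the first and 8.51% with the second. LGALS3BP passed the line at -1.02 with the first. With probe sets averaged, IRF1 was at -0.89 and STING1 at -0.88, no longer 2-fold lower, while IFNGR1 was at -1.02. Centring on the 75th percentile shifted the median of all genes to -0.10, with 9.05% of all genes lower and 6.34% higher by 2-fold, and centring on spike-ins shifted it to 0.12, with 6.17% lower and 9.79% higher. With spike-ins OAS3, PARP9, DTX3L and RSAD2 were no longer 2-fold lower, at -0.93, -0.93, -0.96 and -0.90, and OASL turned to 0.020. PARP9 was at -0.53 and HELZ2 at -0.68 with probe sets averaged, and PARP9 at -0.011 without shared endings. BST2 was at -2.89 with no floor, from a stretched signal of 5.01. Differences of genes near the floor are bounds, and the number of arrays limits all precision.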
